A study of Mus musculus with 2 samples.

Results

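Transcripts of the cytosolic ribosomal protein genes and of their paralogs were followed in 1 wild-type and 1 Srcap-knockout RNA library of mouse intestinal cells. Members were taken by symbol, as rows named Rpl or Rps with a number and at most a variant suffix, together with Rplp0, Rplp1, Rplp2 and Rpsa, and without the S6 kinases. This gave 84 of the 17840 genes listed in both tables, namely 77 core genes (46 of the large and 31 of the small subunit) and 7 paralogs. Both groups of mice carried Lgr5-Cre. The knockout library came from tamoxifen-treated mice with the Srcap flox/flox genotype and the wild-type library from Srcap +/+ mice, and the labels do not say clearly whether the latter received tamoxifen too. Cells were isolated from crypts by GFP intensity as Lgr5-positive stem cells and were not cultured. The labels give neither the age nor the number of the mice. SRCAP is the motor enzyme of a remodelling complex that places the histone variant H2A.Z in nucleosomes, and the comparison asks how transcript levels differ between these genotypes.

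Each ribosome is built from a small subunit, which decodes the messenger RNA, and a large subunit, which joins the amino acids, and every subunit needs about equal amounts of its proteins. Messenger RNAs of ribosomal proteins mostly begin with a tract of pyrimidines, the TOP sequence, through which the mTORC1 pathway and the RNA-binding protein LARP1 control their translation and stability. In the intestinal crypt, dividing cells hold much of the ribosome production of the epithelium. Some core genes have a paralog that encodes a closely related protein, which can take the place of the parent protein or is made in few tissues.

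The libraries differed in more than the labelled gene. Srcap was at 20.4 FPKM (fragments counted for each kilobase of transcript per 1000000 mapped fragments) in wild type and 11.3 FPKM in knockout, so 55.7% of its transcript level remained, and complete loss of Srcap in the sorted cells is not shown by these values. Of 8 stem cell markers 8 were lower in the knockout library, with a summed level of 1690 and 724 FPKM, and of 7 Paneth cell markers 7 were lower (33799 and 19114 FPKM). Of 6 enteroendocrine markers 6 were lower (387 and 205 FPKM), as were 5 of 5 tuft cell markers (14.35 and 10.03 FPKM). Of 8 enterocyte markers 8 were higher (486 and 827 FPKM), as were 5 of 6 goblet cell (4547 and 6650 FPKM), 6 of 6 stromal (47.7 and 269 FPKM), 4 of 4 mesothelial (2.46 and 52.97 FPKM), 6 of 6 myeloid (132 and 321 FPKM), 5 of 5 T cell (20.8 and 34.6 FPKM) and 3 of 3 measured B and plasma cell markers (366 and 559 FPKM). No measured marker was at 0 in either library. Among Y-linked genes, Eif2s3y was at 0.94 and 15.2 FPKM, Kdm5d at 1.24 and 3.41 FPKM and Ddx3y at 2.33 and 4.28 FPKM. These genes were detected in both libraries and were higher in the knockout library by unequal amounts, so genotype and the sex of the animals cannot be told apart. The part of these differences in the results below was not tested, and fewer cells of a type cannot be told apart from less RNA per cell. Since each genotype has 1 library, the genotypes were not tested against each other, and there are no p-values.

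The annotated starts of the expressed paralogs and of their parent genes are shown, except that of Rpl7, which had no entry. With them are those of the core genes that had the lowest ratio of knockout to wild-type level (Rpl4) and the highest (Rps24). Each stretch runs from 100 bases before to 30 bases after 1 start listed by RefSeq (GRCm38.p6, the same assembly as mm10). For Rpl22 and Rps27l this start lies inside the gene interval, which begins at 152324436 and at 66944624. Capitals mark, within 50 bases of the start, a C followed by 7 or more bases that are all C or T on the transcribed strand, and anywhere in the stretch, on both strands, the TATA box letters TATAAA, the ETS factor letters CCGGAAG, the YY1-type letters AAGATGGC and the E-box letters CACGTG. The letters TATAAA and their reverse complement may overlap. A tract that lies more than 30 bases after the start falls outside the stretch and is not marked.
Rpl22 (chr4:152325626-152325755, + strand): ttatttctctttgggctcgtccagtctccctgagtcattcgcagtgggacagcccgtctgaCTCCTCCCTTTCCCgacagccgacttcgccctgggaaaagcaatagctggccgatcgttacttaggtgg
Rpl22l1 (chr3:28805408-28805537, + strand): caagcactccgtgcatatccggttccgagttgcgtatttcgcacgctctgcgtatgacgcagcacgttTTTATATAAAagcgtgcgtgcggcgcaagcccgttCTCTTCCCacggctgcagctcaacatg
Rps27 (chr3:90213619-90213748, - strand): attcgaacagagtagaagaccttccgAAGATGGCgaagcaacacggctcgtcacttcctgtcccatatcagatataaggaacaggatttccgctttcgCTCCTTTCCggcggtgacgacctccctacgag
Rps27l (chr9:66945986-66946115, + strand): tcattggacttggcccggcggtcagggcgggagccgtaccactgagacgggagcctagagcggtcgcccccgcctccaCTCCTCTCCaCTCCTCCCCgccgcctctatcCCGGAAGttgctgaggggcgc
Rpl36a (chrX:134585554-134585683, + strand): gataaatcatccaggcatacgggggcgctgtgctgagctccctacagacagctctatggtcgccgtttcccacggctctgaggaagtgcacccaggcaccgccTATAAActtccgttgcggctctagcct
Rpl36al (chr12:69184038-69184167, - strand): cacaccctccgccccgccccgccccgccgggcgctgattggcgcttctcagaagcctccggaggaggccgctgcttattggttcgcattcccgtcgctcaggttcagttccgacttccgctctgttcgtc
Rpl7l1 (chr17:46782627-46782756, - strand): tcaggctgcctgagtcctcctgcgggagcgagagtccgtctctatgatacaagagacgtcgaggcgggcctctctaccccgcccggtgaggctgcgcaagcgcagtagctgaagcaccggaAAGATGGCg
Rpl4 (chr9:64173287-64173416, + strand): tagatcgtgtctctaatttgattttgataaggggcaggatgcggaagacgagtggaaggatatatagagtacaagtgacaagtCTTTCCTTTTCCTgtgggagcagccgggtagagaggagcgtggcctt
Rps24 (chr14:24490578-24490707, + strand): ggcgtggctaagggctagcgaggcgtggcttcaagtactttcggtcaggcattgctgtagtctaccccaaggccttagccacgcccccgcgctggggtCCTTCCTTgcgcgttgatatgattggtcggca
A pyrimidine tract of this kind lay within 50 bases on either side of the start in 46 of the 57 core genes with an entry (80.7%) and in 27.7% of 9481 promoters of genes that reached 1 FPKM in at least 1 library. Among the paralogs 5 of 7 had one, Rpl22l1, Rps27l and Rpl36al included. CCGGAAG, the letters read by ETS factors, was present in 40.4% of these core promoters and in 18.7% of the 9481. TATAAA was in 8.77% and 7.67%, CACGTG, the E-box read by MYC, in 8.77% and 10.3%, and AAGATGGC, which holds the core read by YY1, in 7.02% and 4.83%. These matches describe the letters in these windows and are not mapped binding sites. The log2 ratios of knockout to wild-type levels had a median of -0.20 in the 46 core genes with a tract and -0.19 in the 11 without one.

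All 77 core genes were abundant in both libraries. Their levels per length had a median of 1671 FPKM in wild type and 1449 FPKM in knockout, and together they held 20.5% and 19.0% of all FPKM. Rpl41, which encodes the smallest ribosomal protein, was the highest, at 6013 FPKM in wild type and 5395 FPKM in knockout. Rplp1, a protein of the stalk that recruits elongation factors, followed with 4099 and 3481 FPKM, and Rps2, at the messenger RNA entry site, with 3932 and 3291 FPKM. The stalk base gene Rplp0 was at 2965 and 2546 FPKM. Next in the wild-type library came Rps18, Rpl32, Rps16 and Rpl28, from 2940 FPKM for Rps18 to 2767 FPKM for Rpl28. The lowest core gene was Rps15a, at 125 and 110 FPKM, so the levels listed for proteins needed in about equal amounts spanned a wide range.

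Also at the low end were Rpl22 at 245 and 207 FPKM, Rps20 at 319 and 281 FPKM and Rpl21 at 459 and 408 FPKM. Rpl31, Rpl37, Rpl15 and Rpl5 lay between 597 FPKM for Rpl31 and 707 FPKM for Rpl5 in the wild-type library. The order of levels hardly differed between the libraries (Spearman's rho 1.00 over 77 genes, which share library, depth and gene lengths). Levels of single genes depend on the transcript length used and on how reads from copies were assigned. The longest GENCODE M21 principal transcripts of Rps15a and Rps20 are 5179 and 3706 nucleotides, against 345 for Rps27. Of all stretches of 50 bases, the read length, in the transcript of Rps27, 98.7% also occur in other annotated genes, while 93.3% do for Rpl9 and 3.0% for Rps3. Rpl21 and Rpl29 each share such stretches with 81 annotated pseudogenes and Rpl7a with 120. Rpl31-ps12, a copy annotated as protein-coding, was at 773 and 708 FPKM, above Rpl31 itself (597 and 529 FPKM), and the split between these copies is uncertain.

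**Figure D1:**
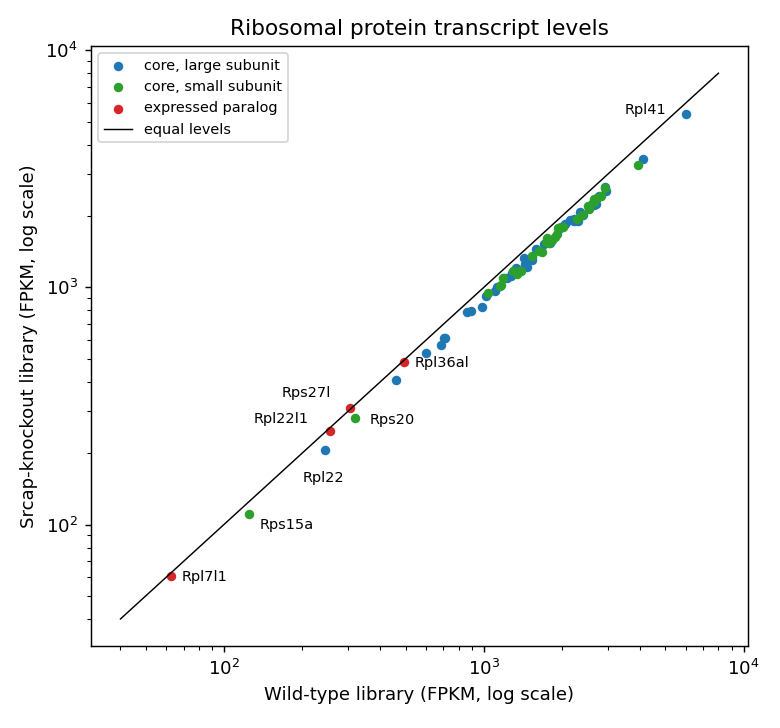
Level of each core gene (blue, large subunit; green, small subunit) and of the 4 expressed paralogs (red) in the wild-type library (x axis, FPKM, log scale) and the Srcap-knockout library (y axis, FPKM, log scale). All 77 core genes lie below the line of equal levels, from Rps15a at 125 and 110 FPKM to Rpl41 at 6013 and 5395 FPKM, while the paralogs lie next to the line.

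Every core gene was lower in the knockout than in the wild-type library, by a small and similar amount. The log2 ratio of knockout to wild-type level, with 1 FPKM added to both, was below 0 for 77 of 77 core genes, as it was for 46.4% of the 11784 genes that reached 1 FPKM in at least 1 library and for 52.3% of 774 other genes that reached 100 FPKM in each. The median of the core was -0.19, against 0.02 over the 11784 genes and -0.01 over the 774. All 77 held the same sign after each of 4 other scalings of the libraries. After both were rescaled to a sum of 1000000 the core median was -0.11, and the median of genes that reached 10 FPKM in each then moved from -0.02 to 0.07. No core gene reached 2-fold, a size reached by 0.416% of the 11784 genes in the lower and by 2.61% in the higher direction, and by 0.646% and 0.388% of the 774.

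The core genes also lay close to each other. Their log2 ratios ran from -0.27 for Rpl4 to -0.11 for Rps24, with an SD across genes of 0.04. The SD was 0.28 for the 774 other abundant genes, of which 18.9% lay inside the range of the core. These other genes had a median of 198.9 FPKM in the wild-type library, against 1671 FPKM for the core, and so carry more counting error. A counting error was estimated from the value of 1 read, with every transcript taken to be as short as the shortest member, and had a median of 0.02 for a core log2 ratio. It covers neither the difference between mice nor the assignment of reads to copies. The large and small subunits had medians of -0.19 and -0.19. The 4 core genes under 500 FPKM in the wild-type library had ratios from -0.24 to -0.17 and the 16 at 2500 FPKM or more from -0.26 to -0.15. The 10 genes with under 25% of shared 50-base stretches had a median of -0.19 and the 17 with at least 75% one of -0.18.

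**Figure D2:**
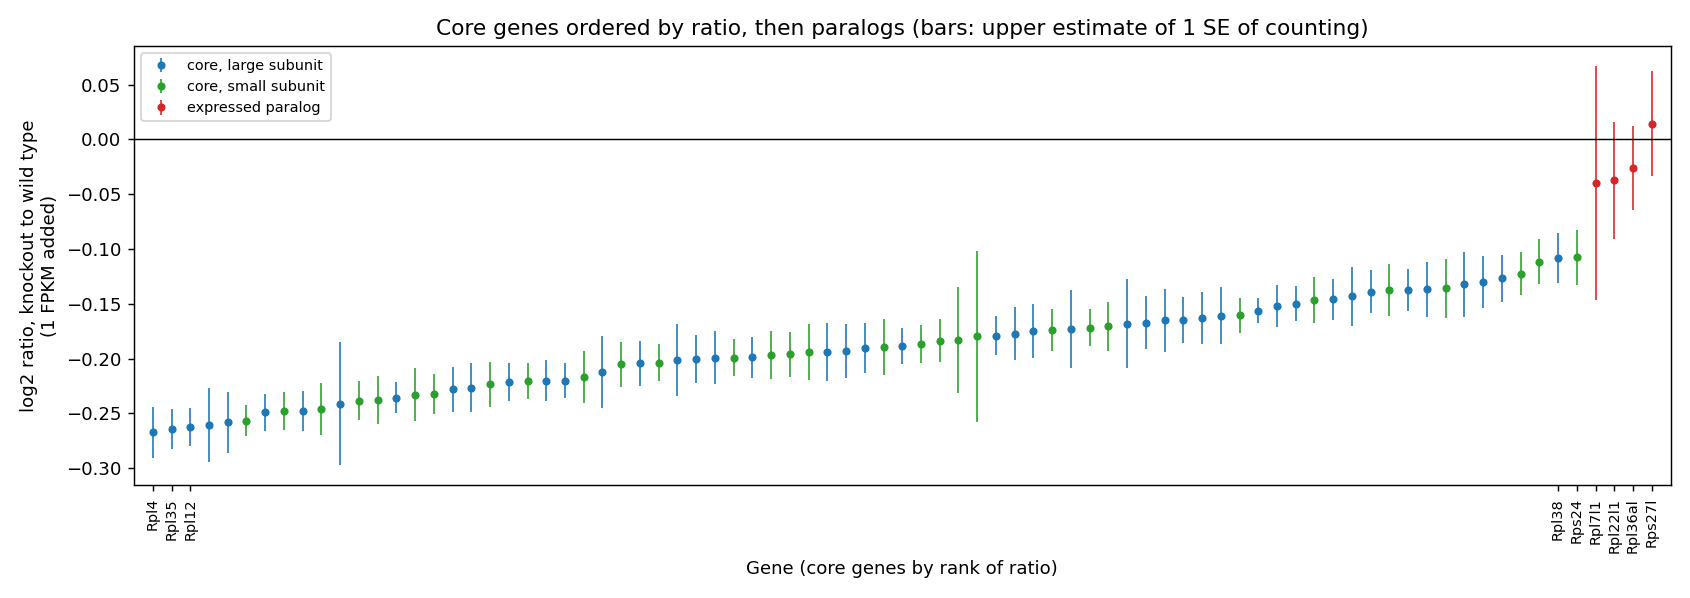
Log2 ratio of knockout to wild-type FPKM (y axis, 1 FPKM added) of the 77 core genes in order of ratio (x axis, with the ends of the order named), then of the 4 expressed paralogs; bars are an upper estimate of 1 standard error of counting. The core runs from -0.27 for Rpl4 to -0.11 for Rps24 and the paralogs from -0.04 for Rpl7l1 to 0.01 for Rps27l as deposited; all 4 paralogs turn positive after rescaling to a sum of 1000000, and all 4 are negative after rescaling to the median or the upper quartile.

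The lowest ratios belonged to proteins of several parts of the ribosome. Rpl4, which lines the tunnel through which the new peptide leaves, was at 1469 FPKM in wild type and 1221 FPKM in knockout, or 83.1% of the wild-type level. Rpl35, at the rim of the tunnel exit, was at 2298 and 1913 FPKM (83.2%), and Rpl12, at the base of the stalk, at 2702 and 2252 FPKM (83.4%). Rpl37, Rpl36a, Rps2, Rpl18 and Rps26 had log2 ratios between -0.26 and -0.25. At the other end Rps24, a gene mutated in Diamond-Blackfan anaemia, was at 1182 and 1097 FPKM (92.8%) and Rpl38, known in mouse for selective translation of Hox messenger RNAs, at 1434 and 1330 FPKM (92.8%). Rps27, Rpl9, Rpl7, Rpl27 and Rps27a had log2 ratios from -0.14 for Rps27a to -0.12 for Rps27. Over the whole core the knockout level thus lay between 83.1% and 92.8% of the wild-type level.

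Genes with well-known roles lay throughout this range. The stalk genes Rplp0, Rplp1 and Rplp2 had log2 ratios of -0.22, -0.24 and -0.22. Rpl5 and Rpl11, which form the 5S RNP that binds and inhibits MDM2, were at 707 and 610 FPKM and at 2221 and 1935 FPKM, and Rpl26, which binds p53 messenger RNA, was at 1339 and 1196 FPKM. Their log2 ratios of -0.21, -0.20 and -0.16 differed little from the core median. Of 9 genes mutated in Diamond-Blackfan anaemia, a failure of red cell production, the median was -0.20, with Rps19 at 1823 and 1591 FPKM. Rps6, the substrate of the S6 kinases, was at 1392 and 1173 FPKM (log2 ratio -0.25), and Rps3, at the messenger RNA entry site, at 1170 and 1022 FPKM (-0.19). Rps25 and Rpl10a, linked to translation of selected messenger RNAs, had ratios of -0.19 and -0.20, and Rpsa, also known as laminin receptor, one of -0.18. The 4 core genes on the X chromosome, Rpl10, Rpl36a, Rpl39 and Rps4x, ran from -0.26 to -0.15, within the range of the core.

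The paralogs fell into expressed and nearly silent genes. Rpl3l, which is known from heart and skeletal muscle, was listed at 0 in wild type and at 0.12 FPKM in the knockout library. Rpl10l, known from the testis, was at 0.05 FPKM in both, and Rpl32l was at 0.15 FPKM in wild type and listed at 0 in the knockout library. Values this low rest on few reads, so no ratio is given. The parents of these genes, Rpl3 (1803 and 1539 FPKM), Rpl10 (2139 and 1933 FPKM) and Rpl32 (2932 and 2642 FPKM), were all lower in the knockout library.

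As deposited, the 4 expressed paralogs had higher ratios than the core genes. Rpl22l1 (chromosome 3, 28805508 to 28807424, mm10), whose product can replace Rpl22, was at 256 FPKM in wild type and 249 FPKM in knockout. Rpl36al (chromosome 12, 69182734 to 69184067), an autosomal copy of the X-linked Rpl36a, was at 494 and 485 FPKM. Rps27l (chromosome 9, 66944624 to 66949522), a gene activated by p53, was at 307 and 310 FPKM. Rpl7l1 (chromosome 17, 46773907 to 46782656), a relative of Rpl7 known in human cells from precursors of the large subunit, was at 62.7 and 60.9 FPKM. Their log2 ratios were -0.04, -0.03, 0.01 and -0.04, with upper estimates of counting error of 0.05, 0.04, 0.05 and 0.11. These errors do not settle whether Rpl7l1 lies above the core, or whether Rpl22l1 lies above the highest core genes. As listed, all 4 ratios were above those of all 77 core genes. A scaling of whole libraries shifts all these genes by nearly the same amount and cannot change this order, but it changes the sign, which was positive for all 4 after rescaling to a sum of 1000000 and negative for all 4 after rescaling to the median or the upper quartile. Of the 774 other abundant genes, 42.8% had a lower ratio than Rpl7l1 and 55.4% a lower ratio than Rps27l, so the paralogs lay near the middle of these genes. Core genes of similar level did not: Rpl22, Rps20 and Rpl21 were at 84.5%, 88.0% and 89.0% of their wild-type level.

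Set against its parent, each expressed paralog took a somewhat larger share in the knockout library. Rpl22l1 made up 51.1% of the summed FPKM of Rpl22 and Rpl22l1 in wild type and 54.7% in the knockout library. Rpl36al made up 33.4% and 37.1% of its pair with Rpl36a, and Rps27l 13.7% and 14.8% of its pair with Rps27. For Rpl7l1 with Rpl7 the shares were 4.51% and 4.78%. The log2 ratio of the paralog exceeded that of the parent by 0.23 for Rpl36al, 0.20 for Rpl22l1, 0.14 for Rps27l and 0.09 for Rpl7l1. These differences were 4.9, 2.63, 2.64 and 0.821 times the upper estimate of their counting error. That estimate is too large for long transcripts, and with 2606 nucleotides for Rpl7l1 and 1163 for Rpl7 it does not settle whether their difference exceeds counting error. None of the differences has a replicate check. No stretch of 50 bases was common to the transcripts of an expressed paralog and its parent, so exact reads of this length would not have been divided within a pair. Other genes share 57.3% of such stretches of Rpl22l1, 24.9% of Rpl36al, 22.4% of Rps27l and 9.03% of Rpl7l1. For the parents they share 98.7% of Rps27, 85.5% of Rpl36a, 53.3% of Rpl7 and 5.2% of Rpl22. The levels of Rpl36a and Rps27 in these pairs thus depend on how reads from copies were assigned, which the counting error does not cover. Of the promoter stretches above, those of Rpl22 and Rpl22l1 both hold a pyrimidine tract near the start used, as do those of Rps27 and Rps27l. The starts used for Rpl22 and Rps27l lie inside their gene intervals. Rpl36a and Rpl36al also had a tract within 50 bases of the start, but not within the stretch shown. Rpl7l1 had none, and Rpl7 had no entry.

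**Figure D3:**
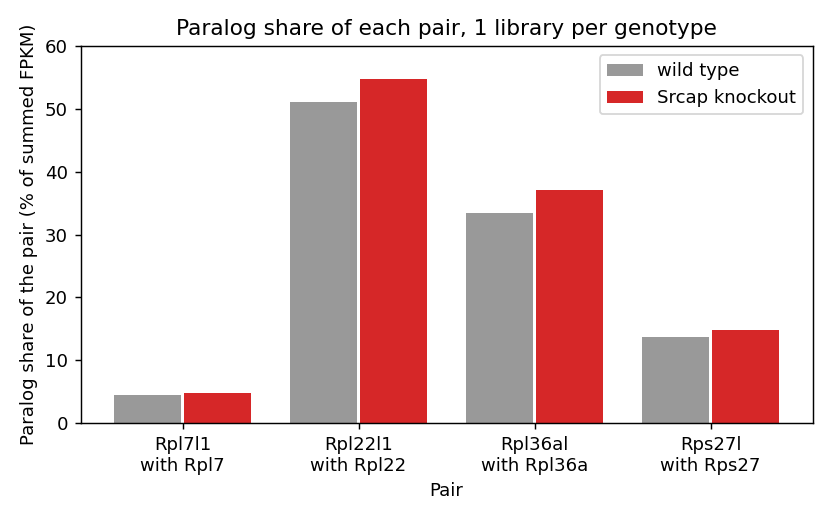
Share of the paralog in the summed FPKM of paralog and parent gene (y axis, percent) for the 4 pairs with an expressed paralog, in the wild-type library (grey) and the Srcap-knockout library (red). The share went from 51.1% to 54.7% for Rpl22l1 and from 33.4% to 37.1% for Rpl36al, with smaller differences for Rps27l and Rpl7l1.

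The p53 pathway is linked to free ribosomal proteins and to Rps27l. Of the p53 gene, its regulators Mdm2 and Mdm4 and its target Cdkn1a, 3 of 4 had positive and 1 a negative log2 ratio. Their median was 0.14, and 46.4% of the 11784 genes that reached 1 FPKM in at least 1 library had a negative ratio. The p53 gene Trp53 was at 112 and 91.4 FPKM, the target Cdkn1a at 33.0 and 67.8 FPKM, Mdm2 at 8.87 and 10.1 FPKM and Mdm4 at 7.9 and 8.64 FPKM. Cdkn1a was thus just past 2-fold with a log2 ratio of 1.02, so near the limit that the call depends on the pseudocount. Of the 11784 genes, 2.61% were at least 2-fold higher. The log2 ratio of Rps27l was 0.01.

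Fau and Rack1, whose proteins sit on the small subunit but do not bear its names, were also lower as deposited, but Fau was higher after rescaling to a sum of 1000000. Fau, which encodes a small-subunit protein fused to a ubiquitin-like protein, was at 1975 and 1884 FPKM (log2 ratio -0.07). Rps27a, a core gene that encodes its protein fused to ubiquitin, was at 1040 and 947 FPKM (-0.14). Rack1, a scaffold protein on the small subunit, was at 2102 and 1878 FPKM (-0.16). Fau thus lay above the range of the core, and Rack1 inside it.

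Other messenger RNAs with a TOP sequence differed by a similar amount as the core. Of 15 such genes 15 had negative ratios as deposited, and 13 after rescaling to a sum of 1000000, where Npm1 and Tpt1 turned positive, with a median of -0.18 as deposited and -0.10 rescaled. As deposited they had a range from -0.34 to -0.07, and 0 were 2-fold lower. Of the 11784 genes that reached 1 FPKM in at least 1 library, 46.4% were negative and 0.416% at least 2-fold lower as deposited. The negative share after rescaling is not given here, but the median of genes that reached 10 FPKM in each library was then 0.07. The elongation factor Eef1a1 was at 6447 and 5529 FPKM, the poly(A)-binding protein gene Pabpc1 at 649 and 529 FPKM (log2 ratio -0.29), the elongation factor subunit Eef1b2 at 504 and 415 FPKM (-0.28) and the initiation factor Eif4b at 170 and 134 FPKM (-0.34). In contrast Tpt1, which encodes a translationally controlled tumour protein, was at 2431 and 2309 FPKM (-0.07). For genes that control TOP messenger RNAs the median was -0.02 as deposited and 0.06 after rescaling to a sum of 1000000, with 10 of 14 negative as deposited, 4 after that rescaling and 6 after rescaling to the same sum without Paneth cell secretory genes. Larp1 was at 52.8 and 52.4 FPKM and Mtor at 7.31 and 6.8 FPKM, while the RNA-binding protein gene Ssb was at 30.5 and 39.4 FPKM and Mlst8 at 14.7 and 12.2 FPKM.

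Genes that make ribosomes were shifted less as a group and varied more, but their levels were lower than those of the core and carry more counting error. Median levels in the wild-type library were 32.83 FPKM for biogenesis, 13.14 FPKM for polymerase and 22.45 FPKM for chaperone genes. Of the 11784 genes that reached 1 FPKM in at least 1 library, 46.4% were negative as deposited. Past 2-fold were 0.416% in the lower and 2.61% in the higher direction. The negative share of all genes after rescaling is not given here. Of 42 ribosome biogenesis genes 35 were negative as deposited and 20 after rescaling to a sum of 1000000, with a median of -0.08 that moved to 0.00, and with 0 past 2-fold. The median of genes that reached 10 FPKM in each library was 0.07 after that rescaling. The largest differences were those of Nob1, an endonuclease of small-subunit maturation, at 46.7 and 36.2 FPKM, of Nhp2, of the pseudouridylation complex, at 165 and 131 FPKM, and of Rrs1, which acts in large-subunit assembly, at 31.7 and 24.99 FPKM. The methyltransferase gene Fbl was at 252 and 200.5 FPKM, whereas Dkc1, the pseudouridine synthase, was at 19.1 and 21.2 FPKM. Subunits and factors of RNA polymerases I and III had a median of -0.12 as deposited and -0.05 after that rescaling, with 15 and 12 of 18 negative, and Polr1c, shared by both enzymes, was at 68.1 and 54.4 FPKM. Of 8 chaperones and escorts of ribosomal proteins 7 were negative as deposited (median -0.17) and 6 after the rescaling (median -0.09), with Bccip at 59.5 and 49.2 FPKM and Grwd1 at 35.7 and 29.7 FPKM.

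Mitochondrial ribosomal proteins, which form the separate ribosome of that organelle, were closer to equal than the core. Of the 11784 genes that reached 1 FPKM in at least 1 library, 46.4% were negative as deposited. Past 2-fold were 0.416% in the lower and 2.61% in the higher direction. The negative share of all genes after rescaling is not given here. The rescaled medians below stand beside 0.07 for genes that reached 10 FPKM in each library. Of 77 measured genes 63 were negative as deposited and 49 after rescaling to a sum of 1000000, with a median log2 ratio of -0.10 as deposited and -0.01 rescaled, and a range from -0.35 for Mrps9 (57.8 and 45.2 FPKM) to 0.18 for Mrpl47 (24.5 and 27.9 FPKM). Their SD across genes of 0.10 was larger than the 0.04 of the cytosolic core, but their levels, with a median of 60.6 FPKM in the wild-type library, were lower and carry more counting error. Of 53 measured genes with symbols of translation factors 41 were negative (31 after rescaling to a sum of 1000000). Their median was -0.10 as deposited and -0.02 rescaled. These genes were taken by symbol and include some that are not translation factors, such as the kinase gene Eef2k. They overlap with the TOP list, and 1 was 2-fold lower (Eef1a2, 3.42 and 1.19 FPKM) and 1 higher (the Y-linked Eif2s3y).

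**Figure D4:**
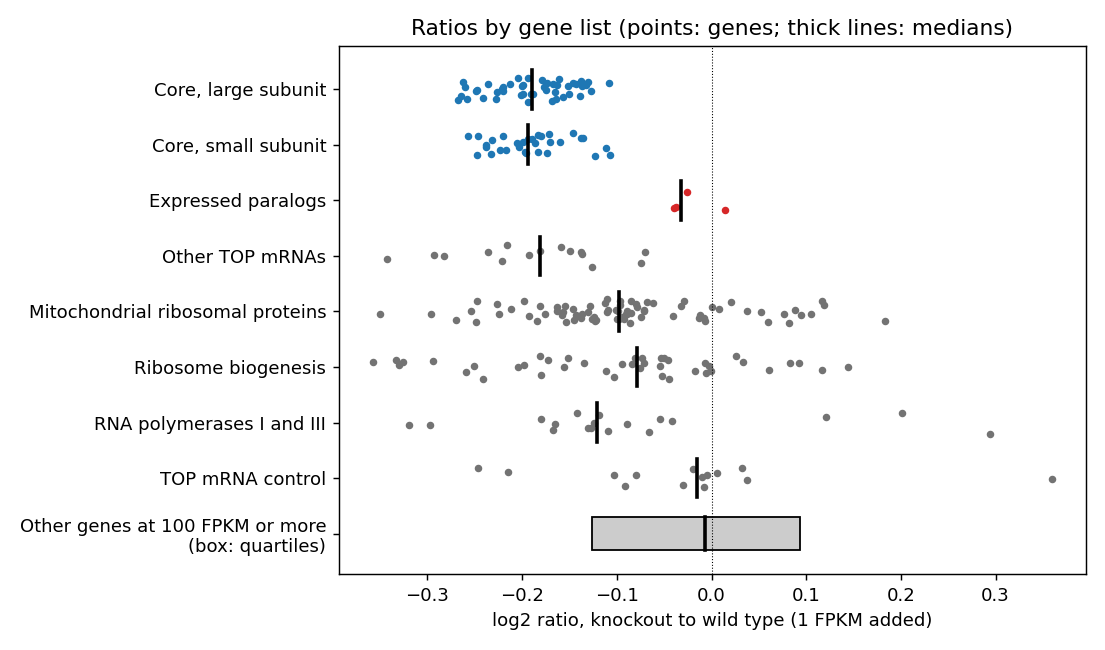
Log2 ratio of knockout to wild-type FPKM (x axis, 1 FPKM added) for each gene of the core, the expressed paralogs and the comparison lists, with a thick line at each median and a box for the quartiles of 774 other genes that reached 100 FPKM in each library. As deposited the core medians lie at -0.19 and that of other TOP messenger RNAs at -0.18; the medians of biogenesis genes (-0.08), of TOP control genes (-0.02) and of the paralogs (-0.03) are at or above 0 after rescaling to a sum of 1000000. That rescaling also moves the median of genes that reached 10 FPKM in each library, from -0.02 to 0.07.

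By construction a scaling leaves the distance between core and paralogs nearly as it was, and moves only the distance of each from 0. Paneth cell secretory genes made up 11.4% of all FPKM in wild type and 7.5% in the knockout library. After the libraries were rescaled to the same sum without these genes the core median was -0.17 and its share of the remaining FPKM was 23.2% and 20.6%. The median of the expressed paralogs exceeded that of the core by 0.16.

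**Figure D5:**
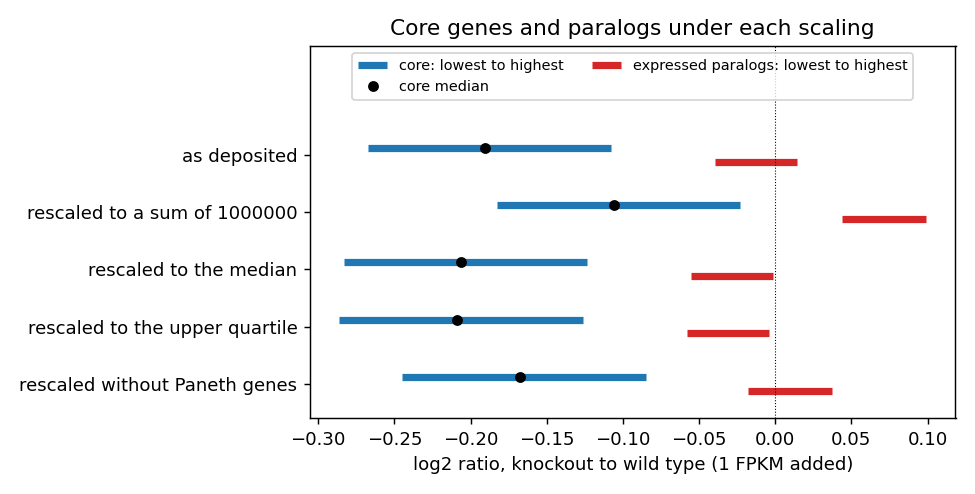
Range of the log2 ratio of knockout to wild-type FPKM (x axis, 1 FPKM added) for the 77 core genes (blue bar, black dot at the median) and the 4 expressed paralogs (red bar) as deposited and under each of 4 scalings. The core stays below 0 throughout, with medians from -0.21 to -0.11, and the paralogs lie on both sides of 0 depending on the scaling. The paralogs lie above the core as deposited, and each scaling keeps this order by construction, since it shifts both bars nearly alike.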

How the data were processed

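The tables of FPKM values (1 per library) were deposited by the authors, per the file headers, and hold 17840 genes each. The submitters' processing notes name mm10 as the build and HISAT, Bowtie2 and RSEM as tools, without roles. The annotation, the strand setting and how reads in several places were counted are not stated in these sources. Libraries were single-end, 50 bp, with 59000000 reads on average, per the labels' protocols. Counts were not used here. Steps between low values of genes under 900 nucleotides implied about 17100000 and 16800000 assigned reads, with 74.1% and 71.3% of values (85 and 87 genes) within 0.2 of a whole read, so the counting error is approximate.

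The log2 ratio is that of knockout to wild-type FPKM after adding 1 FPKM. A gene counted as higher or lower at 2-fold with its larger value at 1 FPKM or more. No test was made. Lists were described by counts and medians, and they and the members were chosen with earlier results of these data known. Noncoding host genes of small nucleolar RNAs were not analysed here, and the values of some genes under the naming rule are not reported here. Genes were named by a rule: all paralogs and parents, the 8 most and least abundant core genes, the 8 highest and lowest ratios, genes of known roles, and up to 3 members per list. Some further members were chosen after their values were seen. Alternatives were pseudocounts of 0.1 and 5 FPKM, other filters, 1.5-fold calls and 4 scalings. Transcripts were those of GENCODE M21, and promoters and coordinates came from RefSeq (17795 of 17840 identifiers matched). Python 3.11.15, pandas 2.3.3, numpy 2.4.6 and scipy 1.17.1 were used.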

Additional observations from a re-analysis of the deposited data

How the results depend on the processing

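The alternatives were fixed with earlier results of these data known. All 77 core genes kept a negative log2 ratio, and 0 reached the fold limit, under both other pseudocounts, both other filters and all 4 scalings, and 0 did so at 1.5-fold. With every core gene at 110 FPKM or more, these pseudocounts and filters could not have changed this. Each scaling shifts all core genes by nearly the same amount, so their signs are not separate checks. The core median was -0.19 and became -0.11 after rescaling to a sum of 1000000. The core share of FPKM differed by -1.49 percentage points (knockout minus wild type), and by -2.58 points without Paneth cell secretory genes in the sum. Over all genes tested, 308 were at least 2-fold higher and 49 lower. These counts were 656 and 110 with a pseudocount of 0.1 FPKM, 108 and 23 with 5 FPKM, 121 and 30 with a minimum of 10 FPKM and 948 and 186 at 1.5-fold, and 472 were higher after rescaling to a sum of 1000000. Of 156 recomputed values 137 moved by less than the limits set for them, and the cause of the others was not tested beyond what each setting does by construction. The 156 include values that a setting could not change, such as pair shares under a scaling. No paired analysis was possible because there is 1 library per genotype, and no replicate could be left out. Single levels are limited by reads shared between copies and by depth.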

Other observations

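The transcription factor MYC drives ribosome production. The list of its network pools MYC genes with genes that oppose MYC, so its counts and median do not describe MYC activity. Of 8 measured members 3 had negative and 5 positive log2 ratios, with a median of 0.05. Among the 11784 genes that reached 1 FPKM in at least 1 library, 46.4% were negative. Myc was at 41.1 FPKM in wild type and 36.2 FPKM in knockout and Mycl at 17.9 and 12.4 FPKM. Mxd1, which opposes MYC in differentiating cells, was at 6.06 and 12.7 FPKM, while its relative Mxd3 was at 11.4 and 8.73 FPKM. Of other genes that oppose MYC, Mxi1 was at 7.44 and 9.01 FPKM, Mxd4 at 14.45 and 15.66 FPKM and Mnt at 7.89 and 8.03 FPKM. Max, the partner of MYC, was at 42.99 and 45.42 FPKM. Of 5 general or sequence-specific factors linked to promoters of ribosomal protein genes 2 were negative and 3 positive (median 0.03), with Yy1 at 30.2 and 26.0 FPKM, Gabpa at 6.06 and 6.89 FPKM and Taf1 at 3.94 and 4.51 FPKM.

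Of kinase genes whose products phosphorylate Rps6, Rps6kb1 was at 7.11 and 7.0 FPKM and Rps6kb2 at 14.4 and 14.3 FPKM, while the more abundant Rps6ka1, of the related RSK family, was at 111 and 119 FPKM (log2 ratio 0.10). Rps19bp1, whose product binds Rps19, was at 35.9 and 31.6 FPKM. Of retained copies outside the naming rule, Rpl37rt was at 28.2 and 27.3 FPKM and Rpl34-ps1 at 1.92 and 1.47 FPKM.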
